A study of Mus musculus with 4 samples.

Results

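Lysosomal genes were followed in the brain myeloid cells of 20 mice. The list held 46 genes for proteins of the lysosomal membrane, the vacuolar H+-ATPase that acidifies the lumen, and the hydrolases and carriers inside it. Cathepsins were left out. Members were found by their symbols, and all 46 were among the 19737 genes of the count table. They divided by role into 8 membrane proteins, 4 activators and luminal carriers, 8 glycosidases, 3 sulfatases, 4 lipid hydrolases including a thioesterase, 2 peptidases, 1 transcription factor and 16 subunits or accessory proteins of the vacuolar H+-ATPase.

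All mice carried the humanized transferrin receptor allele TfRmu/hu, the controls included, and received a single intravenous antibody dose of 10 mg/kg, with cells taken 24 h later. The mice formed 5 groups of 4. WT;TfRmu/hu animals received either ATV:ISO or ATV:4D9. AppSAA;TfRmu/hu animals, homozygous for a knocked-in App gene, received ATV:ISO, or 4D9 alone, or ATV:4D9. The AppSAA allele carries disease mutations and leads to amyloid pathology. 4D9 is an activating antibody against mouse TREM2, a lipid-sensing receptor of microglia, ATV is a transport vehicle that binds the human transferrin receptor at the brain endothelium, and ATV:ISO carries no TREM2 binding arm. The isotype arm is named ATV-DNP02 in the deposited annotation, and reading it as ATV:ISO is an inference. One mouse, WT given ATV:ISO, was recorded as female and the others as male. AppSAA mice were 8 months old, and WT mice of this line were from 2 to 8 months old over several experiments, so that the age of the WT mice used here is not fixed.

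Lysosomes break down lipids, glycans and proteins that microglia take up, among them myelin and amyloid. The vacuolar H+-ATPase is built from a membrane-embedded V0 sector, which carries protons, and a cytosolic V1 sector, which hydrolyses ATP. Many lysosomal genes carry the sequence CACGTG, an E-box at the core of the palindrome TCACGTGA, near their start sites. The transcription factor TFEB, encoded by Tfeb, binds this element and is held in the cytosol by mTORC1 at the lysosomal surface.

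Promoters were read from RefSeq on build GRCm38.p6, from 250 bases before to 50 after the start site, for 38 of the 46 genes. CACGTG was found in 12 of these 38 windows (31.6%) against 8.09% of 27025 genes with a promoter, and TCACGTGA, which contains it, in 6 (15.8%) against 1.12%. Both are palindromes, so a match lies on both strands. The 12 genes were Lamp1, Mcoln1, Cln3, Gla, Glb1, Naglu, Arsa, Lgmn, Atp6v0b, Atp6v0d1, Atp6v0e and Atp6v1a. Printed 5′ to 3′ along the gene are the promoters of Gla, Glb1 and Naglu, glycosidase genes whose response to ATV:4D9 differed between genotypes, of Lamp1, a membrane protein gene with 4 matches, and of Gusb, a glycosidase gene with no match. Gusb, Hexa and Neu1 are glycosidase genes whose response differed as well, and none of their windows held CACGTG. Capitals mark CACGTG, or TCACGTGA where the longer form is present.
Gla, chrX:134600956-134601255, minus strand: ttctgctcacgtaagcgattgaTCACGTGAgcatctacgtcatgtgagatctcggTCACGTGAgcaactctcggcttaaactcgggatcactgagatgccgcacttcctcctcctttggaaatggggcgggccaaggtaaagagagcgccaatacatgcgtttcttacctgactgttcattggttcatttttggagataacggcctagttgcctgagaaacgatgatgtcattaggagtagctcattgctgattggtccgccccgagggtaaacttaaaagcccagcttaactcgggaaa
Glb1, chr9:114400828-114401127, plus strand: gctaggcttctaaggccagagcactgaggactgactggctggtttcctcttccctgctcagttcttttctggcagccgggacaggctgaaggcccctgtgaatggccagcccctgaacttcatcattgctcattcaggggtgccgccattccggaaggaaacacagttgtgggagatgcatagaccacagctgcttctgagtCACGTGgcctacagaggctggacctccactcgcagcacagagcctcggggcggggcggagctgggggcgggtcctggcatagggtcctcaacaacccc
Naglu, chr11:101069844-101070143, plus strand: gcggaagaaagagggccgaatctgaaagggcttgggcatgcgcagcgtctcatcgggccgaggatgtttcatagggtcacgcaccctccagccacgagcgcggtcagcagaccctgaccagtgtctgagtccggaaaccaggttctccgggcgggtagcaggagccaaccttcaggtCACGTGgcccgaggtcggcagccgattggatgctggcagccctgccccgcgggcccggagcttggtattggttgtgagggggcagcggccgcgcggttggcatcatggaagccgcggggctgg
Lamp1, chr8:13158911-13159210, plus strand: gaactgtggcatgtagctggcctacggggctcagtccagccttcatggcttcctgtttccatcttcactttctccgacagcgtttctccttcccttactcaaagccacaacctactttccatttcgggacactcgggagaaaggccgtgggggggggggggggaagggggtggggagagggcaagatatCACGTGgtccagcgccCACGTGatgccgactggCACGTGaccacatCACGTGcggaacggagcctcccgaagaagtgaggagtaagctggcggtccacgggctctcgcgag
Gusb, chr5:130003000-130003299, minus strand: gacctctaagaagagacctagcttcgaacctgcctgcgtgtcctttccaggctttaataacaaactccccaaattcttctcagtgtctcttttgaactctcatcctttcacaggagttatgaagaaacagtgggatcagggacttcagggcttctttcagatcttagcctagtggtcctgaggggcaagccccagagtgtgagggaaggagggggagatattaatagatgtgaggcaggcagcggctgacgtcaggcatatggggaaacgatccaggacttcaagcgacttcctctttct
The other genes with the long form include a lysosomal channel, a membrane protein and the catalytic subunit of the V1 sector. Their surroundings of 40 bases are shown for Mcoln1, Cln3 and Atp6v1a, with TCACGTGA in capitals.
Mcoln1, chr8:3500457-3500496, plus strand: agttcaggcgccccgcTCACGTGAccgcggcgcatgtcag
Cln3, chr7:126583335-126583374, minus strand: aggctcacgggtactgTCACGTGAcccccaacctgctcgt
Atp6v1a, chr16:44139368-44139407, minus strand: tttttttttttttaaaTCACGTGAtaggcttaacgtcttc
Gla holds the long form at 2 places, where the inner CACGTG begins 227 and 194 bases before the RefSeq start site. That start site lies within the gene span given for Gla with its values. Genes with and without a match were found on both sides of the comparisons. Under ATV:4D9 in WT mice, Gla rose and Mcoln1 and Cln3 fell among genes with a match. Among genes without one, Gusb rose and Tmem106b fell. No entry was found for Npc1, Galns, Asah1, Atp6v0d2, Atp6v1b2, Atp6v1c1, Atp6v1g1 and Atp6v1h.

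The deposited table held 74758 cells, with 2193 to 6126 cells and 17150296 to 102446549 unique molecular identifiers (UMIs) a mouse. Each of 4 pools held a mouse of every group, and values for single mice are given in the order of the pools. The cells carried microglial markers in every mouse (10 markers summed, 14790 to 28326 CPM), while markers of neurons summed to at most 2.15 and of T and NK cells to at most 2.42. Summed per mouse, the markers of neutrophils ranged from 4.58 to 24.1 CPM, of monocytes from 5.54 to 17.4, of macrophages of the brain borders from 11.9 to 39.2, of endothelium from 15.1 to 57.8, of oligodendrocytes from 33.3 to 71.9, of astrocytes from 60.9 to 164 and of B cells from 177 to 304. Slc1a3 made up most of the astrocyte sum and Ighm most of the B cell sum, with the other 4 astrocyte markers at no more than 1.01 CPM. Flt1, Pecam1 and Kdr made up most of the endothelium sum, with Cldn5 at no more than 0.416 CPM and Ly6c1 at no more than 0.377. Mbp and Mag made up most of the oligodendrocyte sum and Klrb1c most of the T and NK sum. A change in such a sum is thus mainly one of these genes, and need not be one in the number of such cells. In WT mice the astrocyte sum went from a mean of 148 CPM under ATV:ISO to 68.9 under ATV:4D9, the oligodendrocyte sum from 62.8 to 39.2, the B cell sum from 289 to 209 and the endothelium sum from 29.3 to 17.2. In AppSAA mice these means went from 97.1 to 81.5, from 56.0 to 41.9, from 249.6 to 193 and from 48.4 to 30.4 CPM. The mean sum of the microglial markers fell too, from 27822 to 19135 CPM in WT and from 19735 to 15692 CPM in AppSAA mice. Under ATV:ISO the endothelium sum was also higher in AppSAA than in WT mice, and the astrocyte and B cell sums were lower. The microglial markers had means of 19735 CPM in AppSAA and 27822 in WT mice given ATV:ISO, and those of T and NK cells 1.74 and 0.396. The part of these cells in the results was not tested. The deposited clusters at resolution 0.2 came without names. Cluster 0 had the highest level of the microglial markers and cluster 3 of immediate early genes, and both are pooled here as homeostatic-like. The plaque response markers summed to a mean of 8762 CPM in cluster 3 and 4788 in cluster 0. Cluster 1 had the highest level of the plaque response markers, cluster 4 of cell cycle genes and cluster 5 of interferon-stimulated genes. Cluster 2 was highest in none of these sums, with means of 18215 CPM for the microglial and 13369 for the plaque response markers. Of the barcodes, 0.732% occurred in more than 1 pool.

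UMIs were summed over the cells of a mouse, and each level is in CPM (UMIs of the gene in each 1e6 of the mouse) scaled by TMM, which sets the typical gene equal between mice. A change is therefore relative to the other genes of the same mouse. The mean number of UMIs per cell was 8612 ± 711 (SD, n = 4) in WT mice given ATV:ISO, 16780 ± 1725 in WT mice given ATV:4D9, 11520 ± 860 in AppSAA mice given ATV:ISO, 11926 ± 1656 with 4D9 and 17116 ± 1283 with ATV:4D9. Together the 46 genes took 1.82% ± 0.0655 of the UMIs in WT mice given ATV:ISO and 1.89% ± 0.0291 in AppSAA mice given ATV:ISO. Under ATV:4D9 they took 1.56% ± 0.0612 in WT and 1.61% ± 0.0674 in AppSAA mice. Sums over a mouse cannot tell fewer cells of a type from less RNA per cell. Genes were called at an adjusted p under 0.05 with the quasi-likelihood test of edgeR over 14058 genes. The 7 comparisons below draw on the same 20 mice and share groups, so their results are given side by side and are not independent of each other.

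Most lysosomal hydrolase genes were higher in AppSAA than in WT mice given ATV:ISO, a comparison of the genotypes without the TREM2 antibody. Of the 46 genes 23 were called higher and 2 lower, against 14.4% higher and 13.7% lower of all genes tested. The median log2 fold change was 0.22 over the 46 genes and -0.06 over all genes. By role, 11 of 17 hydrolase genes were higher and 1 was lower, made up of 7 of 8 glycosidases, 2 of 4 lipid hydrolases, 1 of 2 peptidases and, of 3 sulfatases, 1 higher and 1 lower. Likewise 2 of 4 activators and carriers, 8 of 16 H+-ATPase genes and 2 of 8 membrane protein genes were higher. In the same groups no TMM scaling gave 15 higher and 10 lower, against 10.8% and 37.5% of all genes. Divided by the number of cells, 30 were higher and 0 lower, against 22.9% and 1.49% of all genes, and Tfeb and Arsa, called lower on the TMM scale, had ratios of UMIs per cell of 0.987 and 1.01.

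Gla encodes alpha-galactosidase A, which removes galactose from globosides, and lies at chrX:134588149-134601125 on the minus strand. Its level was 3.88, 5.74, 5.04 and 3.55 CPM in WT mice given ATV:ISO and 15.2, 17.9, 17.3 and 14.5 CPM in AppSAA mice given ATV:ISO. Every AppSAA mouse was above every WT mouse, and the log2 fold change was 1.84 ± 0.14 (SE, adjusted p = 3.63e-09). Gusb, the gene of beta-glucuronidase, lies at chr5:129989011-130003049 on the minus strand. It stood at 197, 177, 177 and 177 CPM in WT and at 426, 397, 360 and 352 CPM in AppSAA mice. The groups did not overlap (log2 fold change 1.08 ± 0.08, adjusted p = 2.08e-09). Glb1, which encodes beta-galactosidase, rose from 45.0, 40.8, 43.6 and 44.6 CPM to 86.3, 91.4, 90.5 and 82.7 CPM. This gap was again free of overlap, with a log2 fold change of 1.01 ± 0.07 (adjusted p = 1.12e-09).

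Hexa, for the alpha subunit of beta-hexosaminidase, rose by 0.77 ± 0.10 on the log2 scale (adjusted p = 4.11e-06) and Naglu, for a heparan sulfate glucosaminidase, by 0.77 ± 0.07 (adjusted p = 7.43e-08). Among the sulfatases, Galns, which desulfates keratan and chondroitin sulfate, stood at 6.87, 7.13, 6.55 and 7.34 CPM in WT and at 13, 15.2, 14.7 and 14.5 CPM in AppSAA mice. All AppSAA mice were higher, by 1.04 ± 0.10 on the log2 scale (adjusted p = 8.44e-08). Npc2, a luminal carrier that hands cholesterol to NPC1, had 870, 823, 752 and 730 CPM in WT and 1636, 1845, 1451 and 1457 CPM in AppSAA mice. Its log2 fold change was 1.01 ± 0.10 (adjusted p = 2.53e-07), whereas its membrane partner Npc1 had a log2 fold change of -0.09 (95% interval -0.28 to 0.10) and was not called. Grn, which encodes progranulin, a glycoprotein of the lysosomal lumen, was higher by 0.55 ± 0.07 (adjusted p = 3.38e-06). Lipa, the acid lipase gene, was higher by 0.34 ± 0.06 (adjusted p = 0.00023).

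The widest difference was that of Atp6v0d2, an isoform of the d subunit of the V0 sector known from osteoclasts and macrophages, at chr4:19876841-19922605 on the minus strand. WT mice given ATV:ISO had 0, 0.628, 0.708 and 0.833 CPM, from 0 to 27 UMIs a mouse, and AppSAA mice given ATV:ISO had 10.2, 13.4, 13.2 and 6.33 CPM. All AppSAA mice exceeded all WT mice, and the log2 fold change was 4.20 ± 0.51 (adjusted p = 2.84e-06), whose size rests on few WT UMIs. The broadly expressed isoform Atp6v0d1 had a log2 fold change of 0.11 (95% interval -0.06 to 0.28) and was not called. Among the other H+-ATPase genes that rose were Atp6v0c, the proton-carrying ring subunit (0.62 ± 0.13, adjusted p = 0.00159), Atp6v1a, the catalytic subunit (0.66 ± 0.09, adjusted p = 1.13e-05), and Atp6v1f (0.60 ± 0.10, adjusted p = 0.00017). Atp6v0c has processed copies elsewhere in the genome, and reads shared with them would be uncertain.

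The 2 genes called lower were Tfeb (log2 fold change -0.26 ± 0.07, adjusted p = 0.00613) and Arsa, a sulfatide sulfatase (-0.21 ± 0.07, adjusted p = 0.0322). With no filter on low counts neither was called (adjusted p = 0.0516 for Tfeb and 0.174 for Arsa), and Arsa was not called with RLE size factors (0.0593) or DESeq2 (0.0558). Arsa also missed the threshold without AppSAA replicate 1 (adjusted p = 0.0601) or 2 (0.129) and without WT replicate 3 (0.0843) or 4 (0.094). Of the membrane proteins Lamp2 rose by 0.28 ± 0.06 (adjusted p = 0.000633). Lamp1 was called higher by 0.37 ± 0.12 (adjusted p = 0.0333), but its groups overlapped. In fits without the block its call was lost without AppSAA replicate 1 (adjusted p = 0.0968) or 2 (0.0998) or WT replicate 3 (0.0932) or 4 (0.11). With the pool as a block all 25 genes called in this comparison kept their call. Fitted with the pool as a block, Lgmn, an asparaginyl endopeptidase, was called lower (-0.27 ± 0.04, adjusted p = 2.5e-05), and Arsb, Neu1, Atp6ap1, Atp6v0d1 and Atp6v1e1 were called higher, by 0.09 to 0.28 on the log2 scale with adjusted p from 5.2e-05 to 0.0436. Of 75 other lysosomal pathway genes tested, 22 were higher and 8 lower (29.3% and 10.7%), beside 14.4% and 13.7% of all genes.

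**Figure D1:**
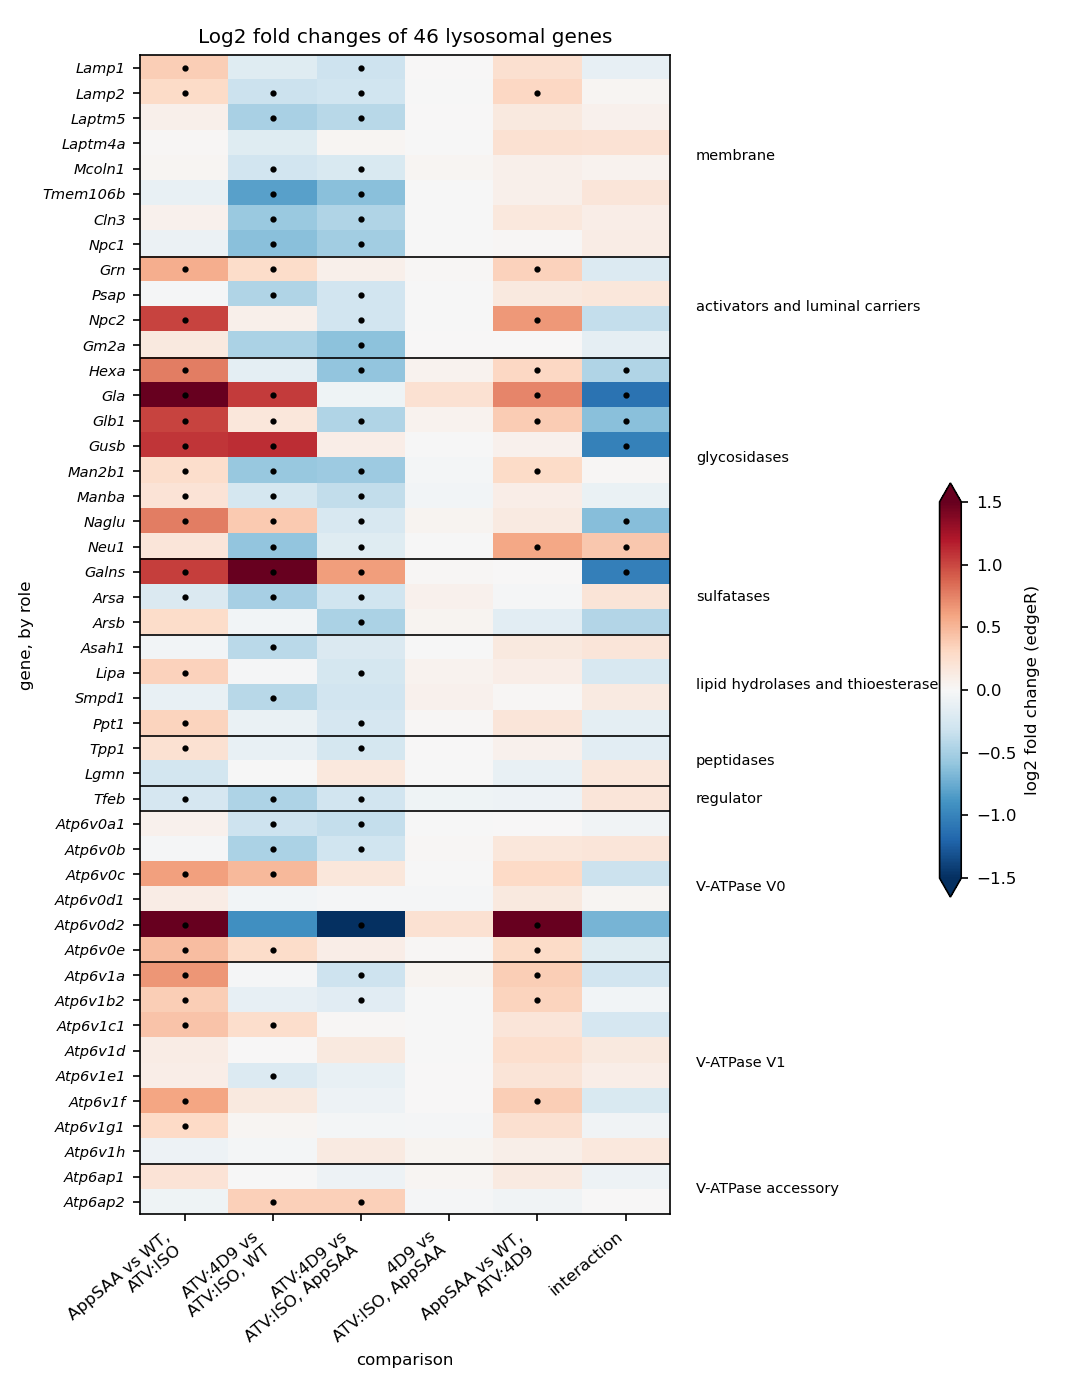
Heat map of the edgeR log2 fold change of 46 lysosomal genes (vertical axis, grouped by role) in 6 comparisons (horizontal axis), with red for higher, blue for lower, colours saturating at 1.5 and dots for an adjusted p under 0.05. The glycosidase genes are mostly red between genotypes under ATV:ISO, the membrane genes are blue under ATV:4D9 in both genotypes but for Laptm4a in AppSAA mice, and the 4D9 column holds no dot; on the scale of UMIs per cell most of the blue cells under ATV:4D9 turn positive.

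On the TMM scale lysosomal genes of WT mice went both ways under ATV:4D9, as did all genes. Here 10 of the 46 rose and 17 fell against ATV:ISO, while 30.8% of all genes tested rose and 32.5% fell. The median log2 fold change was -0.11 over the 46 genes and -0.05 over all genes. Glycosidase genes rose in 4 cases and fell in 3, and 6 of 8 membrane protein genes fell with none higher. Per cell rather than per UMI no gene of the list was called lower: with counts divided by the number of cells, 40 were higher and 0 lower, against 68.2% and 2.35% of all genes, and the median of all genes moved up by 0.84 on the log2 scale.

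Galns, at chr8:122578242-122611463 on the minus strand, rose most, from 6.87, 7.13, 6.55 and 7.34 CPM under ATV:ISO to 25.3, 20.4, 20.9 and 21.2 CPM under ATV:4D9. The groups were far apart, with a log2 fold change of 1.65 ± 0.10 (SE, adjusted p = 1.14e-11). Gusb rose from 197, 177, 177 and 177 CPM to 418, 384, 377 and 387 CPM. The lowest treated mouse stood above the highest control, and the log2 fold change was 1.11 ± 0.08 (adjusted p = 1.95e-10). Gla rose from 3.88, 5.74, 5.04 and 3.55 CPM to 10.6, 7.92, 9.28 and 9.54 CPM. Again all treated mice were higher (log2 fold change 1.04 ± 0.14, adjusted p = 1.63e-06). Naglu had 84.8, 69.5, 69.9 and 69.6 CPM under ATV:ISO and 106, 89.6, 97.5 and 92.7 CPM under ATV:4D9. The rise of Naglu was 0.39 ± 0.07 on the log2 scale (adjusted p = 6.62e-05). Further rises included those of Atp6v0c (0.49 ± 0.13, adjusted p = 0.0035), Atp6ap2, an accessory protein of the H+-ATPase also known as the prorenin receptor (0.35 ± 0.09, adjusted p = 0.00231), and Grn (0.28 ± 0.07, adjusted p = 0.00125).

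The genes that fell were led by Tmem106b, a membrane glycoprotein of late endosomes and lysosomes. It had 55.1, 62.3, 66.4 and 66.7 CPM under ATV:ISO and 31.6, 39.9, 35.6 and 35.9 CPM under ATV:4D9. No treated mouse reached a control, and Tmem106b fell by 0.81 on the log2 scale (SE 0.09, adjusted p = 1.11e-07). Npc1, the membrane protein that exports cholesterol, had 117, 118, 132 and 128 CPM and then 69.7, 83.8, 83.9 and 82.9 CPM. The log2 fold change of Npc1 was -0.63 ± 0.10 (adjusted p = 1e-05), and its partner Npc2 differed by 0.08 (95% interval -0.12 to 0.28). Neu1, the lysosomal sialidase, went from 58.9, 54.9, 56.7 and 56.2 CPM to 41.1, 36.1, 35.6 and 38.1 CPM, with no overlap. Its log2 fold change was -0.59 ± 0.07 (adjusted p = 4.66e-07). Man2b1, an alpha-mannosidase (-0.56 ± 0.09, adjusted p = 1.78e-05), and Cln3, a membrane protein mutated in a juvenile storage disease (-0.55 ± 0.08, adjusted p = 5.5e-06), complete the 5 largest falls.

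Lower too were Laptm5, a lysosomal protein of blood cells (-0.48 ± 0.06, adjusted p = 1.71e-06), Psap, the precursor of the saposins (-0.45 ± 0.08, adjusted p = 5.74e-05), and Lamp2 (-0.33 ± 0.06, adjusted p = 3.94e-05). Mcoln1, a cation channel of the lysosome, fell by 0.29 on the log2 scale (SE 0.08, adjusted p = 0.00294) and Atp6v0a1, the large V0 subunit, by 0.31 (SE 0.07, adjusted p = 0.000947). Tfeb stood at 29.5, 31.1, 28.2 and 28.3 CPM under ATV:ISO and at 22.7, 22.1, 20.5 and 19.7 CPM under ATV:4D9, a log2 fold change of -0.46 ± 0.07 (adjusted p = 4.1e-06) without overlap. Lgmn had a log2 fold change of -0.01 (95% interval -0.21 to 0.19), Lipa -0.02 (-0.14 to 0.10), Atp6v0d1 -0.05 (-0.22 to 0.13), Atp6v1a -0.02 (-0.20 to 0.15) and Hexa -0.14 (-0.33 to 0.05). Lamp1 and Hexa, not called here, were called lower with the pool as a block (Lamp1 -0.19 ± 0.04, adjusted p = 0.000956, Hexa -0.14 ± 0.05, adjusted p = 0.0215), as were Gm2a, Laptm4a, Ppt1, Tpp1 and Atp6v1b2, while Atp6v1f was called higher. Atp6v0d2 had 9 to 28 UMIs a mouse under ATV:4D9, and its log2 fold change of -0.92 had a 95% interval from -2.26 to 0.42.

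Other pathway genes also went both ways in WT mice. Of the 75 tested, 22 rose and 29 fell (29.3% and 38.7%), near the 30.8% and 32.5% of all genes. Remaining H+-ATPase subunits and assembly factors rose in 4 of 9 cases and fell in 1, genes for sorting of hydrolases to the lysosome rose in 6 of 13 and fell in 4, other lysosomal genes rose in 8 of 33 and fell in 14, and TFEB relatives and mTORC1 genes rose in 4 of 20 and fell in 10.

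**Figure D2:**
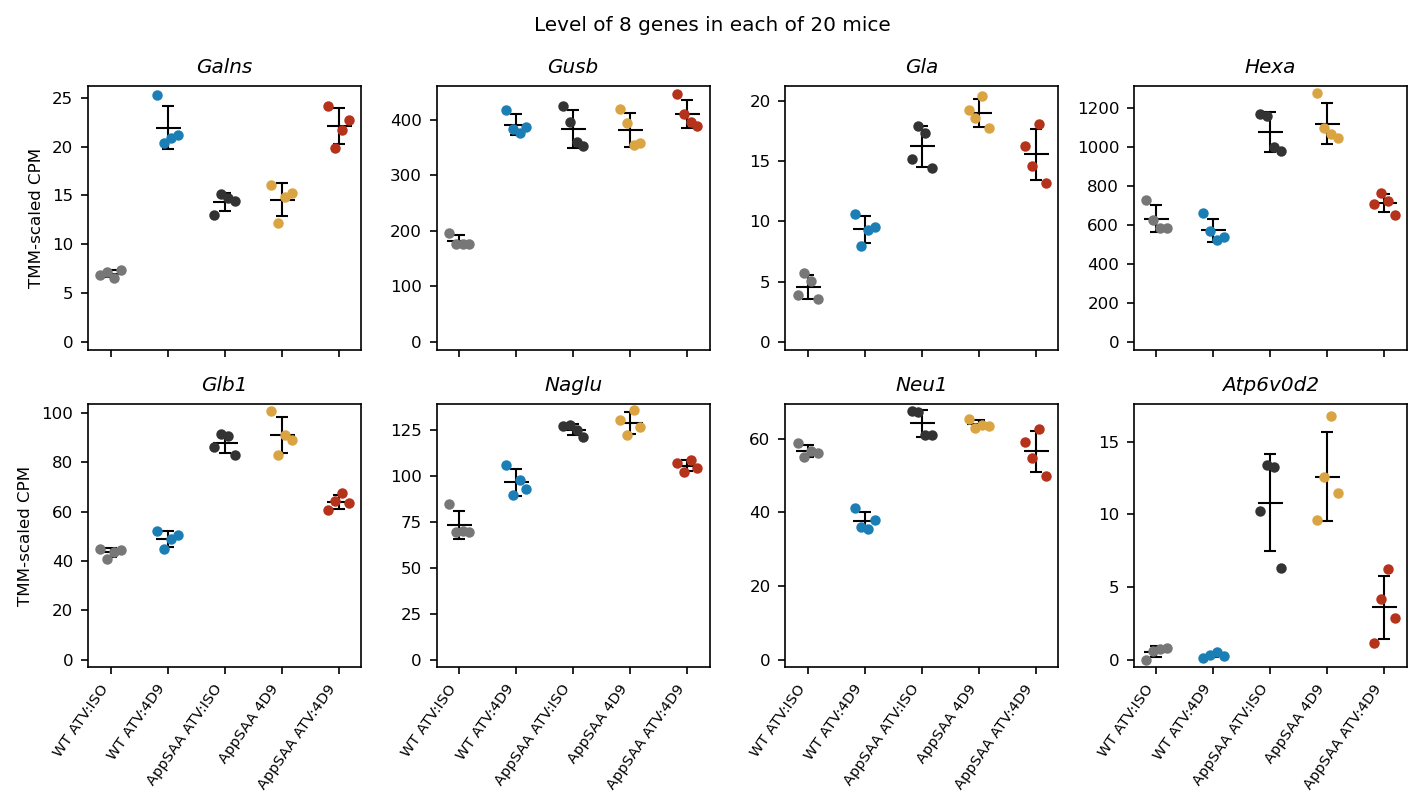
Level of 8 genes in TMM-scaled CPM (vertical axis, linear, from 0) in the 5 groups (horizontal axis), with a point for each of 20 mice and bars for the mean ± SD of 4 mice. Galns and Gusb sit in WT mice given ATV:4D9 at or above the level of AppSAA mice given ATV:ISO, and Hexa and Glb1 are lower in AppSAA mice given ATV:4D9 than in those given ATV:ISO, which for Hexa holds per cell in every pool and for Glb1 in 2 of 4.

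In AppSAA mice more genes of the list fell than rose under ATV:4D9 relative to other genes. Of the 46 genes 2 rose and 27 fell against ATV:ISO, compared with 27.9% and 27.1% of all genes tested. With no filter on low counts 2 rose and 23 fell, and no share of all genes stands beside that count. The median log2 fold change was -0.26, and -0.03 over all genes. Lower were 7 of 8 membrane protein genes, 6 of 8 glycosidases, 3 of 4 activators and carriers, 2 of 3 sulfatases and 5 of 16 H+-ATPase genes. Divided by the number of cells, 22 genes were higher and 1 lower, against 52.1% and 3.19% of all genes, so that the direction of most falls depends on the scale.

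Atp6v0d2 had 10.2, 13.4, 13.2 and 6.33 CPM under ATV:ISO and 1.14, 4.15, 6.27 and 2.87 CPM under ATV:4D9. The highest treated mouse fell just short of the lowest control, and Atp6v0d2 fell by 1.62 on the log2 scale (SE 0.38, adjusted p = 0.00119). Per cell it was lower in all 4 pools too, at 0.475 of the ATV:ISO level. Hexa went from 1168, 1161, 1000 and 981 CPM to 708, 764, 723 and 654 CPM. There was no overlap (log2 fold change -0.60 ± 0.10, adjusted p = 2.94e-05), and per cell Hexa was at 0.937 of the control level and below it in every pool. Glb1 had 86.3, 91.4, 90.5 and 82.7 CPM under ATV:ISO and 60.6, 64.2, 67.6 and 63.5 CPM under ATV:4D9. This is a log2 fold change of -0.46 ± 0.07 (adjusted p = 1.19e-05), while per cell the ratio was 1.03.

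Tmem106b fell by 0.63 on the log2 scale (SE 0.09, adjusted p = 4.73e-06), from 52.6, 62.2, 61.1 and 56.8 CPM to 32.0, 40.5, 39.1 and 39.1 CPM, and was the membrane protein gene with the largest fall. Npc1 (-0.52 ± 0.10, adjusted p = 0.000123), Man2b1 (-0.54 ± 0.09, adjusted p = 4.28e-05), Laptm5 (-0.42 ± 0.06, adjusted p = 1.8e-05), Lamp2 (-0.30 ± 0.06, adjusted p = 0.00016) and Psap (-0.28 ± 0.08, adjusted p = 0.005) were lower without overlap of the groups. Mcoln1 (-0.23 ± 0.08, adjusted p = 0.0129) and Neu1 (-0.18 ± 0.07, adjusted p = 0.0332) were called lower with overlapping groups. Tfeb had 27.1, 21.9, 24.7 and 24.4 CPM under ATV:ISO and 20.4, 20.1, 19.8 and 20.2 CPM under ATV:4D9. All treated mice were lower, by a log2 fold change of -0.28 ± 0.07 (adjusted p = 0.00101). Lower as well were Naglu (-0.25 ± 0.07, adjusted p = 0.00587), Lipa (-0.27 ± 0.06, adjusted p = 0.000937), Atp6v1a (-0.31 ± 0.09, adjusted p = 0.00549) and Atp6v0a1 (-0.36 ± 0.07, adjusted p = 0.000307).

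Some of these calls were lost when any of several mice was left out of the fit without the block. With the pool as a block all 29 calls of this comparison were kept. Gm2a, the ganglioside activator, was called lower by 0.61 on the log2 scale (-0.61 ± 0.21, adjusted p = 0.0177) with overlapping groups, and lost the call without ATV:4D9 replicate 1 (adjusted p = 0.0711) or 3 (0.0627) or ATV:ISO replicate 2 (0.101). Lamp1 (-0.31 ± 0.12, adjusted p = 0.0394) lost it without ATV:ISO replicate 1 (0.115) or 2 (0.112) or ATV:4D9 replicate 3 (0.08) or 4 (0.131). Npc2 (-0.28 ± 0.10, adjusted p = 0.0224) lost it without ATV:ISO replicate 2 (0.0968) or ATV:4D9 replicate 4 (0.0931).

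Only Galns and Atp6ap2 rose on the CPM scale. Galns went from 13, 15.2, 14.7 and 14.5 CPM to 24.2, 19.8, 21.7 and 22.7 CPM, a log2 fold change of 0.62 ± 0.09 (adjusted p = 6.94e-06) with every treated mouse above every control. Atp6ap2 went from 209, 198, 172 and 175 CPM to 284, 241, 219 and 222 CPM, also without overlap (0.36 ± 0.09, adjusted p = 0.00271). Gla had a log2 fold change of -0.06 (95% interval -0.30 to 0.18), Grn 0.07 (-0.06 to 0.20), Gusb 0.10 (-0.05 to 0.25), Atp6v0c 0.17 (-0.09 to 0.44), Lgmn 0.16 (-0.05 to 0.36), Atp6v0d1 -0.01 (-0.18 to 0.16) and Atp6ap1 -0.07 (-0.26 to 0.11). With the pool as a block Gusb (adjusted p = 0.0194), Atp6v0c (0.012), Lgmn (0.00198), Atp6v1d (0.00889) and Atp6v1h (0.0139) were called higher, and Smpd1, Asah1 and Atp6v1e1 lower. Of the 75 other pathway genes 12 rose and 24 fell, beside 27.9% and 27.1% of all genes, with 4 of 9 further H+-ATPase genes higher and none lower and 13 of 33 other lysosomal genes lower and 1 higher.

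With 4D9 alone no lysosomal gene passed the test. Against ATV:ISO in AppSAA mice 0 of 46 genes were called by edgeR, and 0% of all genes tested. At an unadjusted p under 0.05 there were 0 of the 46 and 79 of all 14058 genes. This is below the share of 0.05 that no difference would give, so the fit without the block was strict here. The 0 calls therefore do not show that 4D9 had no effect. DESeq2 and limma voom, also without the block, called 0 of the 46, as did edgeR with the pool as a block. The log2 fold changes ran from -0.07 for Tfeb to 0.23 for Atp6v0d2, with 95% intervals of -0.20 to 0.06 and -0.48 to 0.93. Gla had 15.2, 17.9, 17.3 and 14.5 CPM under ATV:ISO and 19.3, 18.6, 20.4 and 17.7 CPM under 4D9, a log2 fold change of 0.23 with an interval of -0.01 to 0.47. For Galns, Gusb and Hexa the intervals were -0.16 to 0.20, -0.16 to 0.14 and -0.13 to 0.24.

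ATV:4D9 and 4D9, which differ by the vehicle, were compared in AppSAA mice. Between them 2 genes were higher under ATV:4D9 and 28 lower, against 27.6% and 26.7% of all genes. Higher were Galns (0.60 ± 0.09, adjusted p = 1.19e-05) and Atp6ap2 (0.37 ± 0.09, adjusted p = 0.00201). The largest falls were those of Atp6v0d2 (-1.85 ± 0.38, adjusted p = 0.000386), Hexa (-0.65 ± 0.10, adjusted p = 1.05e-05), Tmem106b (-0.63 ± 0.09, adjusted p = 5.14e-06), Gm2a (-0.62 ± 0.21, adjusted p = 0.0167) and Npc1 (-0.52 ± 0.10, adjusted p = 0.000136). The call of Gm2a was lost without ATV:4D9 replicate 1 (adjusted p = 0.0679) or 3 (0.0602) or 4D9 replicate 1 (0.0558) or 3 (0.0511). Those fits were without the block, which kept all 30 calls of this comparison. Gla missed the threshold (-0.29, 95% interval -0.53 to -0.05) and passed it with the pool as a block (-0.30 ± 0.09, adjusted p = 0.00956). The block also called Asah1 (-0.22, adjusted p = 1.73e-05), Atp6v1e1 (-0.12, adjusted p = 0.0103) and Atp6ap1 (-0.11, adjusted p = 0.0088) lower and Gusb (0.11, adjusted p = 0.0137), Lgmn (0.16, adjusted p = 0.00162), Atp6v0c (0.18, adjusted p = 0.00777) and Atp6v1d (0.16, adjusted p = 0.00513) higher. Divided by the number of cells, 17 were higher and 2 lower, against 49% and 3.74% of all genes.

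Between genotypes, the response to ATV:4D9 was tested by the interaction, the log2 fold change in AppSAA minus that in WT mice. Of the 46 genes 6 were lower and 1 higher in this difference, against 5.35% and 3.79% of all genes tested. They were 6 glycosidases and the sulfatase Galns. Gla differed by -1.11 ± 0.18 (adjusted p = 0.000588), Galns by -1.03 ± 0.13 (adjusted p = 4.83e-05) and Gusb by -1.01 ± 0.11 (adjusted p = 1.01e-05). Naglu differed by -0.64 ± 0.10 (adjusted p = 0.000355), Glb1 by -0.63 ± 0.10 (adjusted p = 0.000331) and Hexa by -0.45 ± 0.14 (adjusted p = 0.0398). For these 6 genes AppSAA mice given ATV:ISO already stood above WT mice given ATV:ISO. Under ATV:4D9 the levels of Galns were 22.0 ± 2.24 CPM in WT and 22.1 ± 1.83 in AppSAA mice (SD, n = 4), and those of Gusb 391 ± 18.2 and 410 ± 26.0.

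Neu1 differed the other way, by 0.41 ± 0.10 (adjusted p = 0.012), with 37.7 ± 2.47 CPM in WT and 56.6 ± 5.52 in AppSAA mice under ATV:4D9. The call of Hexa was lost in 8 of the fits that left out a mouse, with adjusted p from 0.0529 to 0.089. Those fits were without the block, which kept all 7 calls. With the pool as a block 23 genes were called in the interaction, 8 higher and 15 lower, against 16.9% and 13.6% of all genes. Among those added as lower were Npc2 (-0.36 ± 0.09, adjusted p = 0.00446), Atp6v0c (-0.32 ± 0.08, adjusted p = 0.00442), Arsb, another sulfatase (-0.44 ± 0.08, adjusted p = 0.000549), Atp6v1a (-0.29 ± 0.07, adjusted p = 0.00453) and Lipa (-0.25 ± 0.06, adjusted p = 0.00395). Added as higher were Laptm4a, Arsa, Asah1, Tmem106b, Atp6v0b, Psap and Lgmn, by 0.17 to 0.21 with adjusted p from 0.00437 to 0.0398. Divided by the number of cells 14 were lower and 0 higher, against 15.6% and 0.27% of all genes.

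Under ATV:4D9 13 genes were higher in AppSAA than in WT mice and 0 lower, against 7.84% and 3.98% of all genes tested. The largest differences were those of Atp6v0d2 (3.50 ± 0.49, adjusted p = 4.19e-05), Gla (0.73 ± 0.12, adjusted p = 0.000317), Npc2 (0.65 ± 0.10, adjusted p = 0.000154), Neu1 (0.58 ± 0.07, adjusted p = 6.37e-06) and Glb1 (0.39 ± 0.07, adjusted p = 0.000529). Also higher were Grn (0.34 ± 0.07, adjusted p = 0.00149), Lamp2 (0.31 ± 0.06, adjusted p = 0.000588) and Atp6v1a (0.37 ± 0.09, adjusted p = 0.0074). Galns (0.01, 95% interval -0.16 to 0.18) and Gusb (0.07, -0.08 to 0.22) were not called. With the pool as a block 29 were higher and 1 lower, against 17% and 14.4% of all genes, and the added genes included Lamp1 (0.25 ± 0.04, adjusted p = 0.000383), Atp6v0c (0.29 ± 0.06, adjusted p = 0.000506), Psap (0.15 ± 0.04, adjusted p = 0.00612), Laptm5 (0.14 ± 0.05, adjusted p = 0.036), Atp6v0d1 (0.14 ± 0.04, adjusted p = 0.011) and Atp6ap1 (0.14 ± 0.03, adjusted p = 0.00384). Without TMM scaling 8 were higher and 3 lower, against 5.63% and 15.7% of all genes, and divided by the number of cells 4 were higher and 0 lower, against 3.53% and 2.43%.

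Counted per cell, most genes of the list were higher under ATV:4D9, as were most genes of the table. In WT mice the mean UMIs per cell of all 46 genes were above those under ATV:ISO, in all 4 pools for 44 of them, and the ratio of means ran from 1.02 to 5.62. Of all genes tested 90.0% were above 1, and the median ratio was 1.66 over the 46 genes and 1.73 over all. Galns had 0.376 ± 0.0381 UMIs per cell under ATV:4D9 and 0.0669 ± 0.00959 under ATV:ISO (SD, n = 4). Gusb had 6.72 ± 0.644 and 1.74 ± 0.153. Tmem106b, whose CPM fell, had 0.616 ± 0.0941 and 0.605 ± 0.122, and was higher in 2 of 4 pools. In AppSAA mice 40 genes were above the ATV:ISO level and 6 below, with 83.1% of all genes above it and a median ratio of 1.18 over the list and 1.39 over all genes. Below in every pool were 3 genes, Tmem106b (0.6001 ± 0.0848 against 0.658 ± 0.106 UMIs per cell), Hexa (11.3 ± 0.413 against 12.1 ± 0.460) and Atp6v0d2 (0.0576 ± 0.0348 against 0.121 ± 0.0392). Between the genotypes under ATV:ISO the median ratio of all genes was 1.13 and that of the list 1.37, and 44 of the 46 genes were higher per cell in AppSAA mice, as were 75.0% of all genes.

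**Figure D3:**
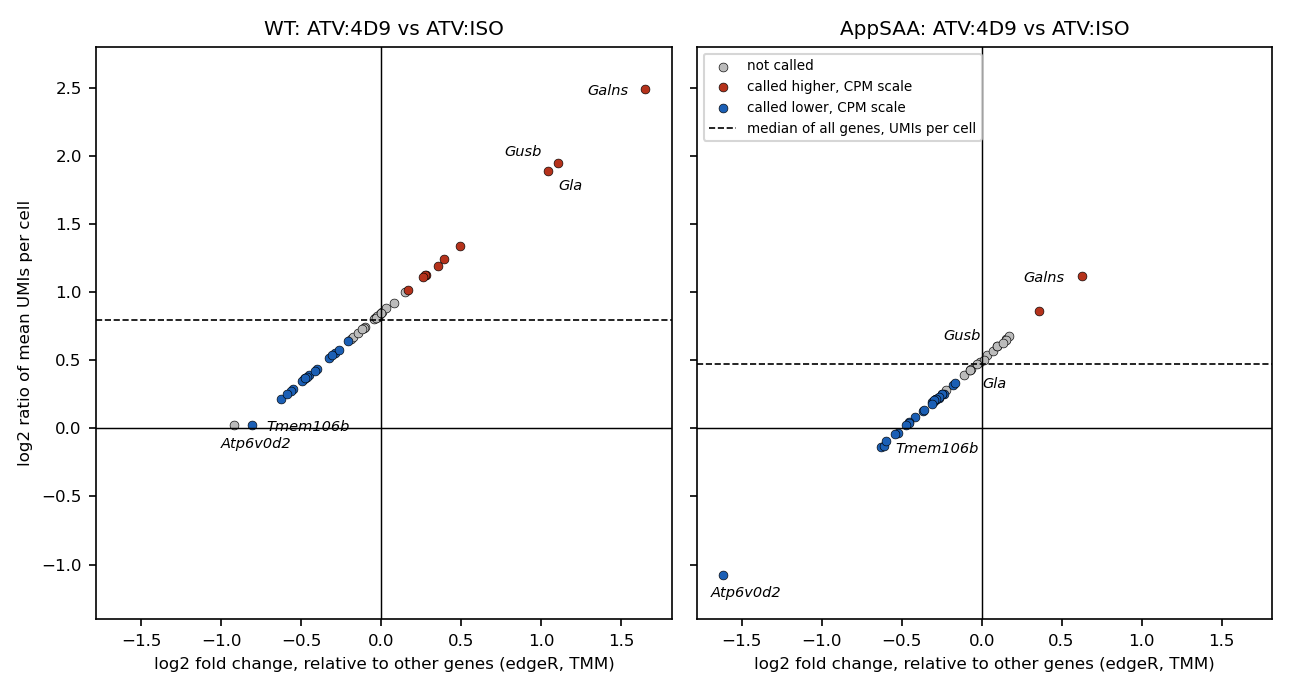
Log2 ratio of mean UMIs per cell (vertical axis) against the edgeR log2 fold change relative to other genes (horizontal axis) for 46 genes under ATV:4D9 against ATV:ISO, WT mice on the left and AppSAA mice on the right. Most genes called lower on the CPM scale (blue) lie above 0 on the vertical axis, and the dashed line marks the median of all genes per cell, 0.79 in WT and 0.47 in AppSAA mice.

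Levels by cluster are given as a description without a test, since the clusters were made from the expression of these cells. Sums of at least 20 cells were used, the CPM here are unscaled, and the means pool the mice of all groups unless a group is named. Atp6v0d2 stood at 20.4 ± 9.44 CPM in cluster 1 (SD, 16 mice) and at 0.303 to 1.23 CPM in the other clusters. Npc2 had 2028 ± 267 CPM in cluster 1 and 894 ± 59.5 in cluster 0, Hexa 1289 ± 188 and 760 ± 60.5, and Glb1 112 ± 18.1 and 54.6 ± 6.57. Gla was taken within groups, since its level within a cluster differed between them. In AppSAA mice given ATV:4D9 it had a mean of 23.5 CPM in cluster 1 (18.3 to 31.2 over 4 mice), 14.9 in cluster 2 (13.3 to 17.6) and 10.2 in cluster 4 (8.50 to 11.7), and these ranges did not overlap. In WT mice given ATV:4D9 Gla had 11.2 CPM in cluster 2 and 7.63 in cluster 4. Galns in AppSAA mice given ATV:4D9 had 25.1 CPM in cluster 4 (22.4 to 28.0), rich in cell cycle genes, and 20.8 in both cluster 1 and cluster 2, where the highest mouse of cluster 2 (22.4) just reached the lowest of cluster 4. Gusb in the same mice had 458, 396 and 385 CPM in clusters 1, 2 and 4, and in WT mice given ATV:4D9 it had 421 in cluster 2 and 398 in cluster 4. Neu1 was lowest in cluster 4, at 24.2 CPM in WT and 29.6 in AppSAA mice given ATV:4D9, with 48.6 and 58.4 in cluster 2. Lgmn had 3225 ± 287 CPM in cluster 0 and 1619 ± 235 in cluster 1, and Tfeb 30.8 ± 4.48 in cluster 3 and 16.9 ± 3.16 in cluster 1.

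Within AppSAA mice given ATV:ISO, 25 genes were higher in cluster 1 than in the homeostatic-like clusters in each of 4 mice and 16 were lower in each, against 15.9% and 65.6% of all genes tested. Led by Atp6v0d2 and Gla, the higher genes had mean log2 ratios up to 5.30 and 2.55, and Lgmn and Tfeb were lower with -1.01 and -0.81. Atp6v0d2 had a mean of 0.549 CPM in the homeostatic-like cells, from 56 UMIs over 4 mice, so the size of its ratio rests on few UMIs. In WT mice given ATV:4D9, 12 genes were higher and 20 lower in cluster 2 than in the homeostatic-like clusters in each mouse, with 25.4% and 31.1% of all genes, and 8 were higher and 30 lower in cluster 4, with 31.8% and 30.8%.

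**Figure D4:**
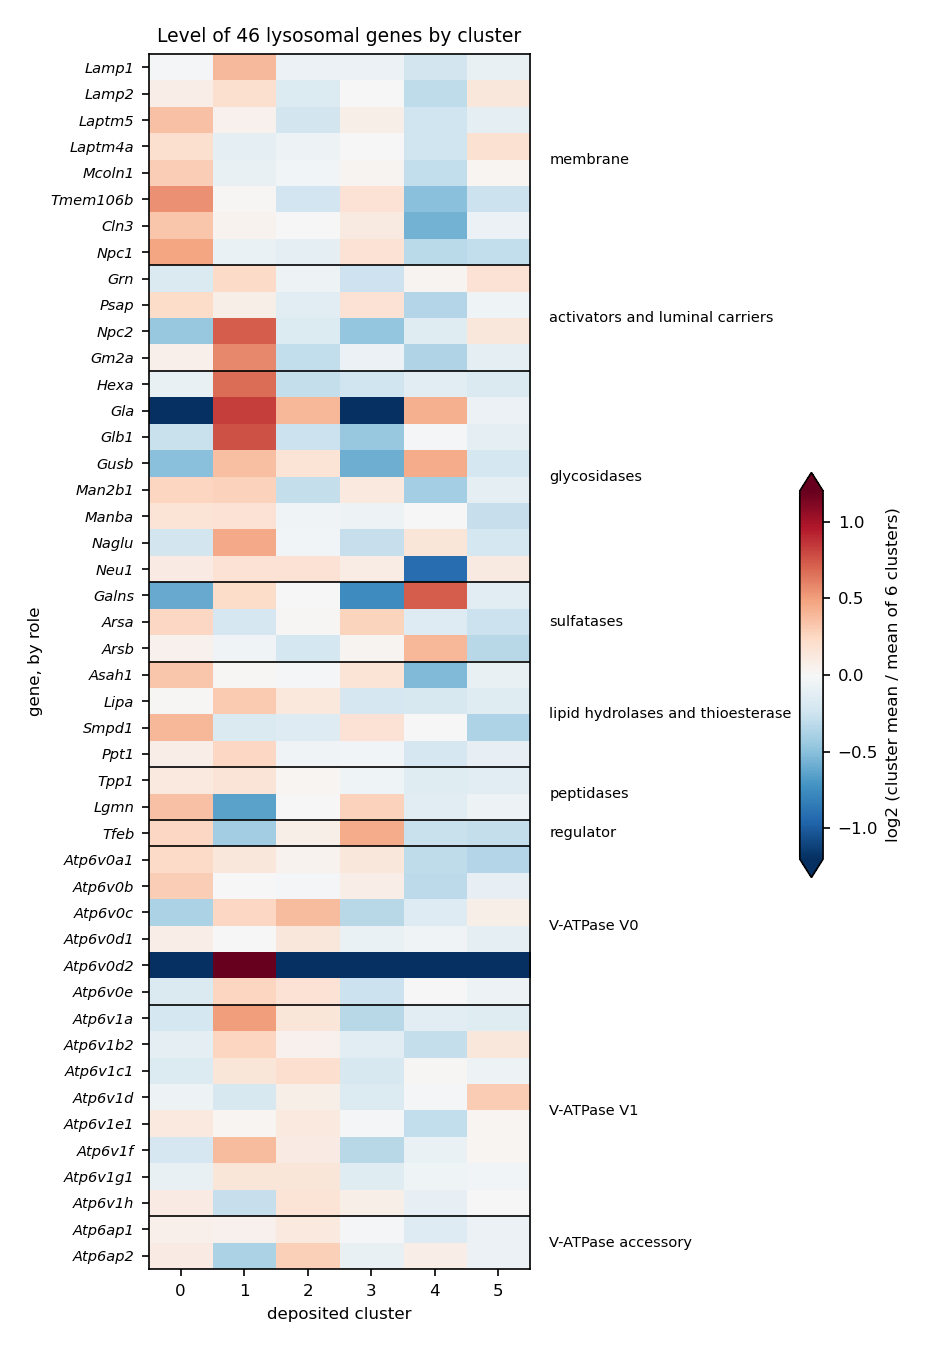
Heat map of the level of 46 genes (vertical axis, by role) in the 6 deposited clusters (horizontal axis), as the log2 ratio of the cluster's mean CPM to the mean of the 6 clusters, pooling the mice of all groups, colours saturating at 1.2. Atp6v0d2 is red in cluster 1 alone, Gla is blue in clusters 0 and 3, Galns is reddest in cluster 4, where Neu1 is blue.

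The shares of the clusters moved with the groups. The homeostatic-like clusters held 96.2% ± 0.772 of the cells in WT mice given ATV:ISO, 7.67% ± 1.92 in WT mice given ATV:4D9, 56.0% ± 4.97 in AppSAA mice given ATV:ISO, 55.3% ± 2.56 with 4D9 and 6.29% ± 3.63 with ATV:4D9. Clusters 0 and 3 held 60.4% and 35.8% of the cells in WT mice given ATV:ISO and 3.11% and 4.56% in those given ATV:4D9, 30.8% and 25.1% in AppSAA mice given ATV:ISO and 2.52% and 3.78% in those given ATV:4D9. The homeostatic-like cells were thus on average more often of cluster 0 under ATV:ISO and of cluster 3 under ATV:4D9, and results in cluster 0 alone stand beside the calls within these cells. Cluster 1 held 38.3% ± 4.64 of the cells in AppSAA mice given ATV:ISO and 13.5% ± 3.05 in those given ATV:4D9, and clusters 2 and 4 held 47.8% ± 3.48 and 39.95% ± 4.44 of the cells in WT mice given ATV:4D9. In AppSAA mice given ATV:4D9 cluster 2 held 35.4% ± 4.54, cluster 4 22.4% ± 3.33 and cluster 5, rich in interferon-stimulated genes, 22.4% ± 4.26, beside 2.34%, 0.949% and 2.48% under ATV:ISO.

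Within clusters fewer genes were called, also among all genes. In the homeostatic-like cells of WT mice 4 of the 46 genes were called between ATV:4D9 and ATV:ISO, against 6.85% of all genes tested, with 164 to 428 cells a mouse left under ATV:4D9 and 2109 to 2875 under ATV:ISO. Galns had 6.75, 6.66, 7.58 and 8.06 CPM under ATV:ISO and 10.1, 13.4, 14.9 and 16.7 CPM under ATV:4D9, from 22 to 51 UMIs a mouse. The groups did not overlap (log2 fold change 1.00 ± 0.16, adjusted p = 0.000371). Gusb had 198, 183, 198 and 197 CPM and then 304, 290, 284 and 305 CPM, likewise without overlap (0.70 ± 0.09, adjusted p = 2.43e-05). Grn was higher (0.28 ± 0.08, adjusted p = 0.0246) and Tfeb lower (-0.29 ± 0.08, adjusted p = 0.0327), but both lost the call in cluster 0 alone and in 5 and 6 of the fits that left out a mouse. Those fits were without the block, which kept all 4 calls. Under the block 15 genes were called, 10 higher and 5 lower, against 22.1% of all genes. Added rises included Hexa (0.22 ± 0.04, adjusted p = 0.0005), Naglu (0.27 ± 0.06, adjusted p = 0.0016), Lgmn (0.22 ± 0.04, adjusted p = 0.000336) and Atp6v0c (0.21 ± 0.04, adjusted p = 0.0005). Added falls were Arsa (-0.35 ± 0.10, adjusted p = 0.0112), Tmem106b (-0.21 ± 0.07, adjusted p = 0.0242), Npc1 (-0.15 ± 0.05, adjusted p = 0.0242) and Atp6v0b (-0.12 ± 0.04, adjusted p = 0.0294).

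Gla in the homeostatic-like cells of WT mice had 3.39 to 4.17 CPM under ATV:ISO and 2.29 to 4.71 CPM under ATV:4D9, from 4 to 15 UMIs a mouse. In AppSAA mice it had 3.96 to 4.70 CPM and 4.87 to 6.75 CPM, without overlap but not called (log2 fold change 0.61 ± 0.21, adjusted p = 0.105), from 6 to 28 UMIs a mouse under ATV:4D9. In these cells of AppSAA mice 3 genes were called, against 4.49% of all genes: Galns (0.87 ± 0.17, adjusted p = 0.00356), Gusb (0.54 ± 0.09, adjusted p = 0.000781) and Grn (0.29 ± 0.08, adjusted p = 0.0291), from 105 to 419 cells a mouse under ATV:4D9. In cluster 0 alone Galns (adjusted p = 0.172), Gusb (0.0572) and Grn (0.59) were not called, and Grn lost the call in 5 of the fits that left out a mouse. Those fits were without the block, which kept all 3 calls. Under the block 9 were called, against 15.2% of all genes, among them Npc2 (0.27 ± 0.05, adjusted p = 0.00027), Hexa (0.17 ± 0.04, adjusted p = 0.00698) and Tfeb (-0.28 ± 0.09, adjusted p = 0.0268). Between AppSAA and WT mice given ATV:ISO, edgeR called 0 of the 46 genes in the homeostatic-like cells, against 0.327% of all genes. At an unadjusted p under 0.05 there was 1 gene, with no share of all genes beside it. The 0 calls do not show that the genes were unchanged in these cells. The block added Naglu (0.21 ± 0.05, adjusted p = 0.00786), against 4.54% of all genes.

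In cluster 1 of AppSAA mice no gene of the list was called by edgeR between ATV:4D9 and ATV:ISO, against 1.51% of all genes tested. None had an unadjusted p under 0.05, and no share of all genes at that p stands beside this. The 0 calls do not show that the genes were unchanged in cluster 1. Atp6v0d2 had 20.05, 21.1, 26.3 and 12 CPM there under ATV:ISO, 16.2, 24.1, 30.7 and 21.8 CPM under 4D9 and 12.3, 25.04, 36.9 and 21.9 CPM under ATV:4D9. These ranges overlapped throughout, and the log2 fold change of ATV:4D9 against ATV:ISO was 0.32 (95% interval -0.22 to 0.85), beside the fall in the sum over all cells. The block called 2 genes, Atp6v0a1 (-0.16 ± 0.05, adjusted p = 0.0414) and Arsb (-0.28 ± 0.08, adjusted p = 0.0285), against 7.77% of all genes. Between 4D9 and ATV:ISO 0 genes of the list and 0% of all genes were called in cluster 1.

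Clusters 2 and 4 allowed a comparison of the genotypes under ATV:4D9. In cluster 2 Gla had 12.5, 9.58, 11.7 and 11.2 CPM in WT and 14.4, 13.3, 17.6 and 14.1 CPM in AppSAA mice. It was the 1 gene called of 45 tested (0.47 ± 0.13, adjusted p = 0.0446), against 2.07% of all genes, and all AppSAA mice were above all WT mice. The call was lost without AppSAA replicate 1 (adjusted p = 0.108) or 3 (0.247) or WT replicate 2 (0.281), 3 (0.0959) or 4 (0.125). Those fits were without the block, which kept the call of Gla. With the block 7 were called, 5 higher and 2 lower in AppSAA mice, against 7.38% of all genes. Among the higher were Neu1 (0.34 ± 0.07, adjusted p = 0.00215) and Npc2 (0.27 ± 0.08, adjusted p = 0.0316). Lower were Gm2a (-0.44 ± 0.13, adjusted p = 0.0419) and Arsb (-0.23 ± 0.06, adjusted p = 0.02). In cluster 4 edgeR called 0 of 45 genes, against 2.76% of all genes. The block called 6, 5 higher and 1 lower in AppSAA mice, against 9.79% of all genes. The higher ones included Neu1 (0.37 ± 0.08, adjusted p = 0.0037), Gla (0.48 ± 0.13, adjusted p = 0.0192) and Npc2 (0.28 ± 0.08, adjusted p = 0.0169). The lower one was Gm2a (-0.42 ± 0.13, adjusted p = 0.0377).

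A last description set the levels of the groups beside the mix of their clusters. For each mouse the share of UMIs in each cluster was multiplied by the cluster's mean level over the mice of all groups. This calculation was chosen after the values were seen, on unscaled CPM and with no test. The means came from the same mice and the clusters from the same cells, so part of any closeness is built in. It was made for the genes of the list only, so no share over all genes stands beside the counts. Between genotypes under ATV:ISO the mix gave a log2 ratio within 0.2 of the observed one for 41 of 46 genes, where a ratio of no change would have done so for 23, and Atp6v0d2 was farthest off, at 3.55 against 4.10 observed. Under ATV:4D9 in WT mice 26 genes lay within 0.2, and 15 would with no change. Galns had an observed log2 ratio of 1.53 and 0.94 from the mix, whereas Gla had 0.92 observed and 1.78 from the mix, which took 18.1 and 18.5 CPM for clusters 2 and 4, where these mice had 11.2 and 7.63. In AppSAA mice 29 genes lay within 0.2, against 15 with no change, and Arsb was farthest off, with -0.54 observed and -0.0044 from the mix.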

How the data were processed

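Single-cell RNA-seq was made with 10x 3′ chemistry from sorted live CD11b+ brain cells, tagged per mouse and run in 4 pools. The deposited texts differ on whether cortex alone or cortex with hippocampus was used and on whether CD45 was part of the gate. Reads were mapped by the authors to mm10, with Cell Ranger 6.1.1 named in their processing notes. They integrated and clustered the cells with Seurat and deposited raw UMI counts per gene and cell with the mouse, genotype, treatment and cluster of each cell. How doublets and poor cells were filtered is not given in the sources used here, no doublet caller was run, and all 74758 deposited cells were used. The labels name only pools, so that the groups of mice come from this annotation.

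UMIs were summed over a mouse, or over its cells in a cluster where at least 20 cells were present. Genes were kept by filterByExpr, scaled by TMM and tested with edgeR 4.0.16 (R 4.3.3, quasi-likelihood test, threshold 0.05 after Benjamini-Hochberg adjustment across every tested gene), with all groups in 1 fit. Summed counts over cells of different number and depth have counting error as well as spread between mice. Intervals are at 95%. The test was checked on simulated counts. These were drawn without an effect of the pool, so the check cannot show how the fit without the block behaves on mice paired by pool. Alternatives were DESeq2 1.42.0, limma 3.58.1 voom, RLE scaling, no filter, the pool as a block, the number of cells as offset and leaving out each mouse. A fit without TMM was chosen after the data were seen. Replicate numbers are pool numbers: deviations of the 40 pairs of mice sharing a pool correlated at 0.143 to 0.607, and the 120 other pairs had a median of -0.193, so the pool pairs the mice.

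Named genes were 19 listed members, the 5 largest rises and falls among those called in each comparison, and every member called in the interaction. Other names were added after their values were seen. The 46 genes and all lists were chosen with earlier results of these data known.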

Additional observations from a re-analysis of the deposited data

Results flagged for a closer look

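Among 150 groups of 4 mice, for 30 genes, 14 had a mouse that stood apart from the other 3 by Dixon's test, and chance alone gives about 1 in 20. Values are TMM-scaled CPM. Replicate 1, the mouse of pool 1, was the one apart in all of the 14 but Lamp2 and Cln3. In WT mice given ATV:ISO replicate 1 was highest for Gusb (197, the others 176.8 to 177.1), Naglu (84.8, the others 69.5 to 69.9) and Lgmn (3243, the others 2535 to 2602). In WT mice given ATV:4D9 it was highest for Galns (25.3, the others 20.4 to 21.2) and Npc2 (989.8, the others 776 to 798) and lowest for Npc1 (69.7, the others 82.9 to 83.9).

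In AppSAA mice given ATV:ISO replicate 1 was lowest for Lipa (119, the others 130.3 to 130.9) and highest for Atp6ap1 (244, the others 199.8 to 205), and replicate 2 was highest for Lamp2 (546, the others 521 to 524). With 4D9 replicate 1 was highest for Laptm5 (2192, the others 2131 to 2138). With ATV:4D9 replicate 1 was lowest for Tmem106b (31.96, the others 39.1 to 40.5) and Npc1 (65.8, the others 84.9 to 87), and highest for Lgmn (2793, the others 2409 to 2459), and replicate 4 was lowest for Cln3 (42.3, the others 47.9 to 48.5).

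The response to ATV:4D9 differed between genotypes in the interaction test for 7 genes, as the log2 fold change in AppSAA minus that in WT mice: Gla (-1.11), Galns (-1.03), Gusb (-1.01), Naglu (-0.64), Glb1 (-0.63), Hexa (-0.45) and Neu1 (0.41).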

How the results depend on the processing

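No log2 fold change of a named gene that was called turned its sign with RLE size factors, DESeq2, limma voom, no filter on low counts, the block, a minimum of 50 cells, cluster 0 alone or a mouse left out, and of these values 1148 kept their call while 69 lost it. The per-cell offset and the fit without TMM were run for the counts of genes called, but as a ratio of UMIs per cell called falls turned to values above 1 in WT mice under ATV:4D9, with Lamp2 at 1.43, Psap at 1.31, Tfeb at 1.30, Laptm5 at 1.28 and Npc1 at 1.16. With the pool as a replicate block the number of genes called rose to 30 between genotypes under ATV:4D9, 23 in the interaction, 15 and 9 in homeostatic-like cells under ATV:4D9 in WT and AppSAA mice, 1 between genotypes in those cells under ATV:ISO, 2 in cluster 1 under ATV:4D9, 7 in cluster 2 and 6 in cluster 4. The block ended no call of a named gene. Divided by the number of cells, 19 genes were called between ATV:4D9 and 4D9, 4 between genotypes under ATV:4D9 and 14 in the interaction. Cluster 0 alone left 2 calls in WT and 0 in AppSAA mice, and a minimum of 50 cells gave 2 calls in cluster 2. No share of all genes stands beside these counts or those with a mouse left out, so they are not read as particular to the list. Leaving out a mouse gave 2 to 5 calls in homeostatic-like WT cells (2 without ATV:ISO replicate 2, 3 or 4), 0 to 2 in cluster 2 (2 without AppSAA replicate 2) and 0 to 1 in cluster 4 (1 without WT replicate 1 or AppSAA replicate 2). It gave 26 to 28 in WT mice under ATV:4D9, 23 to 30 in AppSAA mice, 20 to 24 between genotypes under ATV:ISO, 9 to 15 under ATV:4D9 and 6 to 8 in the interaction. The cause of these changes was not tested. Sums with few UMIs, such as Atp6v0d2 in WT mice, limit what depth can show.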
